A study of Mus musculus with 6 samples.

Results

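Lysine acetylation of histones is set by 3 kinds of proteins, and the RNA of 35 mouse genes of these kinds was compared between glial cells with and without histone H3.3K27M. The members were listed by name, with earlier results of these data known, as 18 erasers (11 zinc-dependent deacetylases and 7 sirtuins), 10 writers (acetyltransferases) and 7 readers with bromodomains, of 22911 genes named on the array. All 35 were found through the RefSeq accessions of their probes, with 68 probes, and all 35 had at least 1 probe bright enough to be tested, which left 64 probes. RNA was taken from OS3 cells, a male glial line of mouse brain (strain C3H in the labels) immortalized with SV40 and established from newborn C3H/HeN animals. WT cells (3 samples) carried the empty vector, and IG27 cells (3 samples) carried a plasmid for H3f3a with the K27M change. *H3f3a* was not raised on the arrays: its brightest probe differed by -0.26 (adjusted p = 0.025 over all probes by limma), and its other probes by 0.17 and -0.20, neither of which passed the test. Whether a probe detects the plasmid's RNA is not known, so these values check no label. IG27 was obtained by drug selection of transfected cells, so it stands for 1 selected line, and no second IG27 or WT line was measured. All cells were grown for 2 days in MEM-α with GlutaMAX, glucose, bovine insulin, serum and antibiotics, in separate dishes, so the p-values measure the spread between dishes of 1 culture of each kind.

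Writers move an acetyl group from acetyl-CoA to a lysine, which removes the positive charge of the side chain and makes a docking site for bromodomains. Erasers remove it again: zinc-dependent deacetylases by hydrolysis, often inside corepressor complexes, and sirtuins at the cost of NAD. On lysine 27 of histone H3 the acetyl mark, found at active enhancers and promoters, and the methyl mark of Polycomb exclude each other, and p300 and CBP are the main writers of this acetylation. The arrays measured RNA, and neither acetylation nor enzyme activity was read here.

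One single-color Agilent array was run per sample, with all 6 on 1 slide. Values are log2 of the processed signal minus the 75th percentile of the array, and differences are IG27 minus WT. The scanner output of IG27 replicate 2 holds 285 of 62976 spots, so its values came from the deposited table of processed signals. On the 5 complete arrays 33289 to 34623 probes were well above background, and no spot was saturated. Of the 15 markers of astrocytes, oligodendrocyte precursors and glial progenitors, all 15 passed the filter on dim probes, with *Slc1a3* well above background in IG27 cells only. Of the 19 markers of neurons, microglia, endothelium and fibroblasts, 11 passed, and *Rbfox3*, *Syt1*, *Ptprc*, *Cx3cr1*, *Cdh5*, *Cldn5* and *Thy1* were not well above background on any array. The summed linear signal, in units of the 75th percentile, ran from 17.5 to 19.9 in WT cells and 9.95 to 11.0 in IG27 cells for neuron markers, and from 4.71 to 5.06 and 2.28 to 2.58 for microglia markers. Single members went both ways: *Tubb3* (-2.63) carried the neuron sum while *Map2* differed by 8.03. *Csf1r* (-1.57 by its brightest probe) and *Tmem119* (-0.76) carried the microglia sum while *Aif1* differed by 1.66. The other probe of *Csf1r* differed by -0.13 and did not pass the test (adjusted p = 0.0723 over all probes by limma). *Map2* and *Aif1* were each well above background on only 1 of 3 WT arrays, so the sizes of their rises depend on values near background. The summed signal ran from 126 to 129 and 64.3 to 69.6 for fibroblast markers, and from 0.162 to 0.178 and 2.58 to 2.65 for endothelial markers. The endothelial rise came through *Kdr* (9.27), which was not well above background in WT cells, while *Pecam1* differed by -0.27. In the fibroblast sum *Col1a1* (-0.92) and *Pdgfrb* (-1.16) stood against *Dcn* (3.58), which was not well above background in WT cells. The glial sums, in WT and IG27 cells, ran from 95.8 to 106 and 55.05 to 63.4 for astrocyte markers. They ran from 195 to 203 and 157 to 174 for progenitor markers, and from 58.7 to 61.7 and 57.6 to 59.3 for oligodendrocyte precursor markers. The brightest probe of *Gfap* (-1.07) carried the astrocyte sum, while its other probe differed by 0.19 (adjusted p = 0.0236 over all probes by limma). Single glial markers went both ways too, such as *Gfap* by its brightest probe and *S100b* (4.93), *Sox2* (-0.80) and *Sox9* (0.71), or *Sox10* (-0.37) and *Pdgfra* (2.36). The part of these differences in the results below was not tested, and in such bulk samples fewer cells of a type and less RNA per cell cannot be told apart.

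The genes of acetylation moved in both directions. Of the 35 genes, 11 (31.4%) were higher and 12 (34.3%) were lower in IG27 cells, and 12 did not pass the test (limma, two-sided, adjusted p under 0.05 over all genes tested). Across all 14898 genes tested, 30.5% were higher and 40% lower, 70.5% in all, so the shares of members called lie near the background. The split depended on scaling, as quantile normalization gave 15 higher and 9 lower members. In that fit 62.5% of the called members were higher, against 46.5% of all called genes. Without it these shares were 47.8% and 43.3%. The median log2 fold change of the members was 0.00 (0.15 under quantile normalization) and that of all genes was -0.07 (-0.05), and the median size irrespective of sign was 0.33 against 0.47. In 26 of 35 genes (74.3%) the values of IG27 cells all lay on 1 side of those of WT cells, against 75.7% of all genes. A change of at least 2-fold was found in 6 members, 4 higher (*Hdac9*, *Sirt4*, *Hdac2* and *Sirt1*) and 2 lower (*Hdac11* and *Brd7*), against 11.5% higher and 11.7% lower among all genes.

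**Figure D1:**
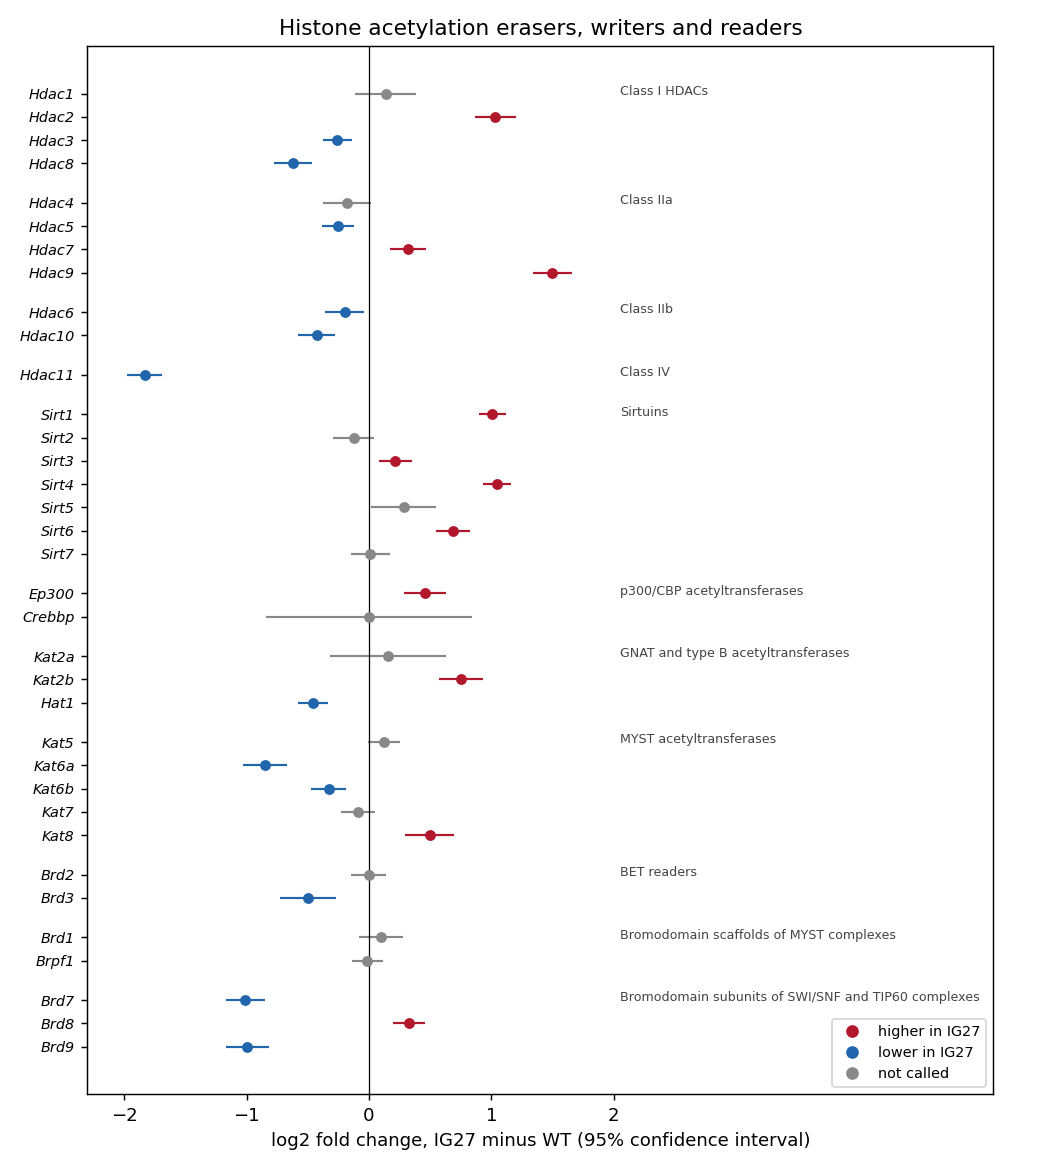
Log2 fold change (IG27 minus WT, x axis) of the brightest tested probe of each of the 35 genes, grouped by role, with bars for the 95% confidence interval from limma. *Hdac9* lies farthest to the right at 1.50 and *Hdac11* farthest to the left at -1.83, and every role with over 2 genes except the sirtuins holds genes called on both sides of 0.

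The sequences before the starts of the 6 genes with at least a 2-fold change are shown because these genes carry the largest differences of the set, and they let the promoters of genes that rose together be read side by side. The windows (RefSeq, GRCm38.p6) hold 250 bases before and 50 bases after a start, 5′ to 3′ on the strand of the gene. Capitals mark matches on either strand to 6 motifs, and overlapping matches run together. The GC box was searched as GGGCGG. The CCAAT box was searched by its letters. The E box was searched as CACGTG. The cAMP response element was searched as TGACGTCA. The core of the NRF1 motif was searched as GCGCATGC. The TATA box was searched as TATAAA.
Sirt1 (chr10:63338986-63339285, minus strand): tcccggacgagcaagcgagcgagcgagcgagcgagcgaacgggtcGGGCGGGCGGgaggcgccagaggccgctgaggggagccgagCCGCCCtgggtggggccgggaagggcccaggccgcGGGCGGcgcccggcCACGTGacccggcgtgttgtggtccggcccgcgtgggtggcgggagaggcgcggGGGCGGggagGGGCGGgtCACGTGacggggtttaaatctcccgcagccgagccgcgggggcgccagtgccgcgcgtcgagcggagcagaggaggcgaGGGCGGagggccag
Hdac2 (chr10:36974294-36974593, plus strand): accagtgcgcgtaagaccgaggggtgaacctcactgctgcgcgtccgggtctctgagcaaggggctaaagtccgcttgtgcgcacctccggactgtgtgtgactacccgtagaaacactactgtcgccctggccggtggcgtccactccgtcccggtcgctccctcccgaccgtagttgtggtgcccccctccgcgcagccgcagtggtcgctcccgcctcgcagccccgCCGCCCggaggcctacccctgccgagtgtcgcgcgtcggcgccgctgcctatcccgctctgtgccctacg
Sirt4 (chr5:115484248-115484547, minus strand): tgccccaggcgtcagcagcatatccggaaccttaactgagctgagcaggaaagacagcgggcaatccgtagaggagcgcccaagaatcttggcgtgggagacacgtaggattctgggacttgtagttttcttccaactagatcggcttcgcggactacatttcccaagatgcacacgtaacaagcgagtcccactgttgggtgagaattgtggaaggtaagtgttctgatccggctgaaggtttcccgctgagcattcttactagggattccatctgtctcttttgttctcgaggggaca
Hdac9 upstream start (chr12:34917046-34917345, minus strand): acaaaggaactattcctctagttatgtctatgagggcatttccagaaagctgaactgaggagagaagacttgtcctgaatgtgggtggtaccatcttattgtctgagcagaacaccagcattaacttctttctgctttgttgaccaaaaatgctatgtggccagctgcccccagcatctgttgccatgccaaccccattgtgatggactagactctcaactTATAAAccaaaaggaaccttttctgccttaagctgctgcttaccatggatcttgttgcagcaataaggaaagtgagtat
Hdac9 downstream start (chr12:34528840-34529139, minus strand): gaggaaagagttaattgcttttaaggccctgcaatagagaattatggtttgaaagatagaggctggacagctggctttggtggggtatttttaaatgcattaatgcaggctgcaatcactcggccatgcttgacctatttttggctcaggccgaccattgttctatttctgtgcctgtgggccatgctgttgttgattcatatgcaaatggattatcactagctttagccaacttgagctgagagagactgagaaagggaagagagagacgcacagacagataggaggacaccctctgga
Hdac11 (chr6:91156565-91156864, plus strand): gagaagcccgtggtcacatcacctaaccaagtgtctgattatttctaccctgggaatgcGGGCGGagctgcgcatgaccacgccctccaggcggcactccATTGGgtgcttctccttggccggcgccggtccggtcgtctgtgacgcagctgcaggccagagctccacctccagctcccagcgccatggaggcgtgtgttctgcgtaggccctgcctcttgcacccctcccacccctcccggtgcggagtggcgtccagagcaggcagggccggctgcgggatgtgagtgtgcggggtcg
Brd7 (chr8:88362123-88362422, minus strand): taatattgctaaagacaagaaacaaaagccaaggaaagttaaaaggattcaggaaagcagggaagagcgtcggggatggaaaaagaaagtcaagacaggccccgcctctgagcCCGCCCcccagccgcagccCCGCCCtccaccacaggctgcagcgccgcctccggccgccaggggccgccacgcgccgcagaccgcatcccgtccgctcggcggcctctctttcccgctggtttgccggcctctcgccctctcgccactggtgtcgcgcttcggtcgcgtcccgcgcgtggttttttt

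*Sirt1* and *Hdac2*, which lie on the same chromosome and rose by nearly the same factor, both have windows rich in CpG (47 and 36 CpG) with GC boxes, 7 in *Sirt1* and 1 in *Hdac2*. *Sirt1* also has 2 E boxes, a motif found in 7.15% of all 32851 windows of this length. *Sirt4*, which rose to the same degree, has 15 CpG and none of the 6 motifs. The 2 windows of *Hdac9* have 0 and 3 CpG and no GC box, and the upstream one has a TATA box, found in 13.6% of all windows. Among the genes that fell, *Hdac11* has 22 CpG, 1 GC box and 1 CCAAT box, and *Brd7* has 31 CpG and 2 GC boxes. Windows rich in CpG with GC boxes were thus not particular to the genes that rose. Windows were found for 30 of the 35 genes (43 windows; none for *Brd8*, *Hdac1*, *Hdac10*, *Hdac3* and *Kat6a*). A GC box was found in 28 of these 43 windows (65.1%) against 35.7% of all windows, and a CCAAT box in 14 (32.6%) against 37.4%. An E box was found in 4 of the 43, the NRF1 core in 3 (2.71% of all windows), a TATA box in 2 and the cAMP response element in 0 (1.79% of all windows). The median ratio of observed to expected CpG was 0.81 in the members and 0.38 in all windows. The set of all windows was not limited to genes tested on the arrays, and some members have more than 1 window. Whether the members differ from other tested genes in these traits was not tested. These matches describe the windows and are not sites of binding.

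Of the 4 class I deacetylases, the nuclear enzymes that repress transcription, *Hdac2* rose, *Hdac3* and *Hdac8* fell and *Hdac1* did not pass the test. *Hdac2*, a catalytic subunit of the Sin3, NuRD and CoREST complexes, had values of -1.98, -2.06 and -1.97 on the 3 WT arrays (replicates 1 to 3, as below) against -1.08, -0.96 and -0.87 on the IG27 arrays. All 3 IG27 arrays lay above all WT arrays, a log2 fold change of 1.03 (SE 0.07, adjusted p = 2.74e-05 by limma), or 2.04-fold. This gene was read by 1 probe. *Hdac1*, which shares these complexes with *Hdac2*, had values of 5.39, 5.03 and 5.25 in WT cells and of 5.45, 5.31 and 5.32 in IG27 cells by its brightest probe. The groups overlapped, and the difference of 0.14 (95% confidence interval -0.11 to 0.39) did not pass the test (adjusted p = 0.276 by limma). A dimmer probe of *Hdac1* had values of 1.75, 1.74 and 1.47 in WT cells and of 2.66, 2.34 and 3.24 in IG27 cells, a difference of 1.09 (SE 0.23, adjusted p = 0.0056 over all probes by limma). The probes of *Hdac1* therefore gave different calls, and with the mean of its probes the gene was higher by 0.61 (adjusted p = 0.00517 by limma).

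*Hdac3*, the deacetylase of the NCoR and SMRT corepressors, had values of 2.94, 2.93 and 2.97 in WT cells and of 2.64, 2.69 and 2.73 in IG27 cells. The groups did not overlap and the log2 fold change was -0.26 (SE 0.05, adjusted p = 0.00306 by limma). The call was lost with the dimmer probe (-0.08, adjusted p = 0.484 by limma) and under quantile normalization (-0.11, adjusted p = 0.0843). *Hdac8*, which deacetylates cohesin and works outside the large corepressor complexes, fell by 0.62 by its brightest probe and by 0.48 by its other probe. *Hdac8* lies on the X chromosome, whose 513 tested genes had a median log2 fold change of -0.59, and relative to that median it differed by -0.03. The part of the chromosome in this result was not tested.

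Of the 4 class IIa genes, whose proteins shuttle between nucleus and cytoplasm and bind MEF2 factors, *Hdac9* and *Hdac7* rose, *Hdac5* fell and *Hdac4* did not pass the test. *Hdac9* had the largest rise among the members. The brightest probe (A_55_P1970755) had values of -2.07, -2.15 and -1.95 in WT cells and of -0.52, -0.56 and -0.60 in IG27 cells. The groups lay 1.35 apart at their nearest arrays, with a log2 fold change of 1.50 (SE 0.06, adjusted p = 4.44e-06 by limma), or 2.83-fold. A second probe of the same accession (A_51_P204031) passed the filter only through IG27 cells (well above background on 1 of 3 WT arrays) and gave 1.74, whereas a probe named through another accession of the gene (A_55_P2497024) had values of -2.39, -2.83 and -2.64 in WT cells and of -2.22, -2.32 and -2.25 in IG27 cells. That probe differed by 0.35 (SE 0.12, adjusted p = 0.0318 over all probes by limma), so the 2 probes measured on all complete arrays were both higher but differed in size. A further 2 probes of *Hdac9* were too dim to be tested. *Hdac7* rose by 0.32 and *Hdac5* fell by 0.25, and the call of *Hdac5* was lost under quantile normalization (-0.09, adjusted p = 0.103 by limma). *Hdac4* differed by -0.18 (95% confidence interval -0.37 to 0.02) by its brightest probe and by -0.29 by its other probe, which passed the test over all probes (adjusted p = 0.0131 by limma).

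Both class IIb genes were lower in IG27 cells. *Hdac10*, which deacetylates polyamines, fell by 0.43 and by 0.57 by its 2 probes, although its chromosome 15 had a median of 0.30. *Hdac6*, the deacetylase of tubulin in the cytoplasm, fell by 0.20 (adjusted p = 0.0346 by limma), a call lost in 8 of 19 alternatives, among them the fits without WT replicate 2, WT replicate 3, IG27 replicate 1 or IG27 replicate 2 (-0.18 to -0.16, adjusted p = 0.0887 to 0.102 by limma). *Hdac6* lies on the X chromosome too, and its fall was smaller than the median of that chromosome.

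*Hdac11*, the only class IV enzyme, which removes long fatty acyl groups from lysine, had the largest difference of all 35 genes, a rank it lost with normexp background correction. Its values were -3.00, -2.91 and -3.06 in WT cells and -4.80, -4.79 and -4.88 in IG27 cells. No array of 1 group came within 1.73 of the other group, and the log2 fold change was -1.83 (SE 0.06, adjusted p = 1.38e-06 by limma), a level 3.56-fold lower in IG27 cells. The gene was read by 1 dim probe, well above background on all complete arrays, and normexp background correction reduced the difference to -0.95 (adjusted p = 1.78e-05 by limma), smaller than those of *Hdac9* (1.28), *Brd7* (-1.07), *Sirt4* (0.998) and *Kat6a* (-0.97).

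**Figure D2:**
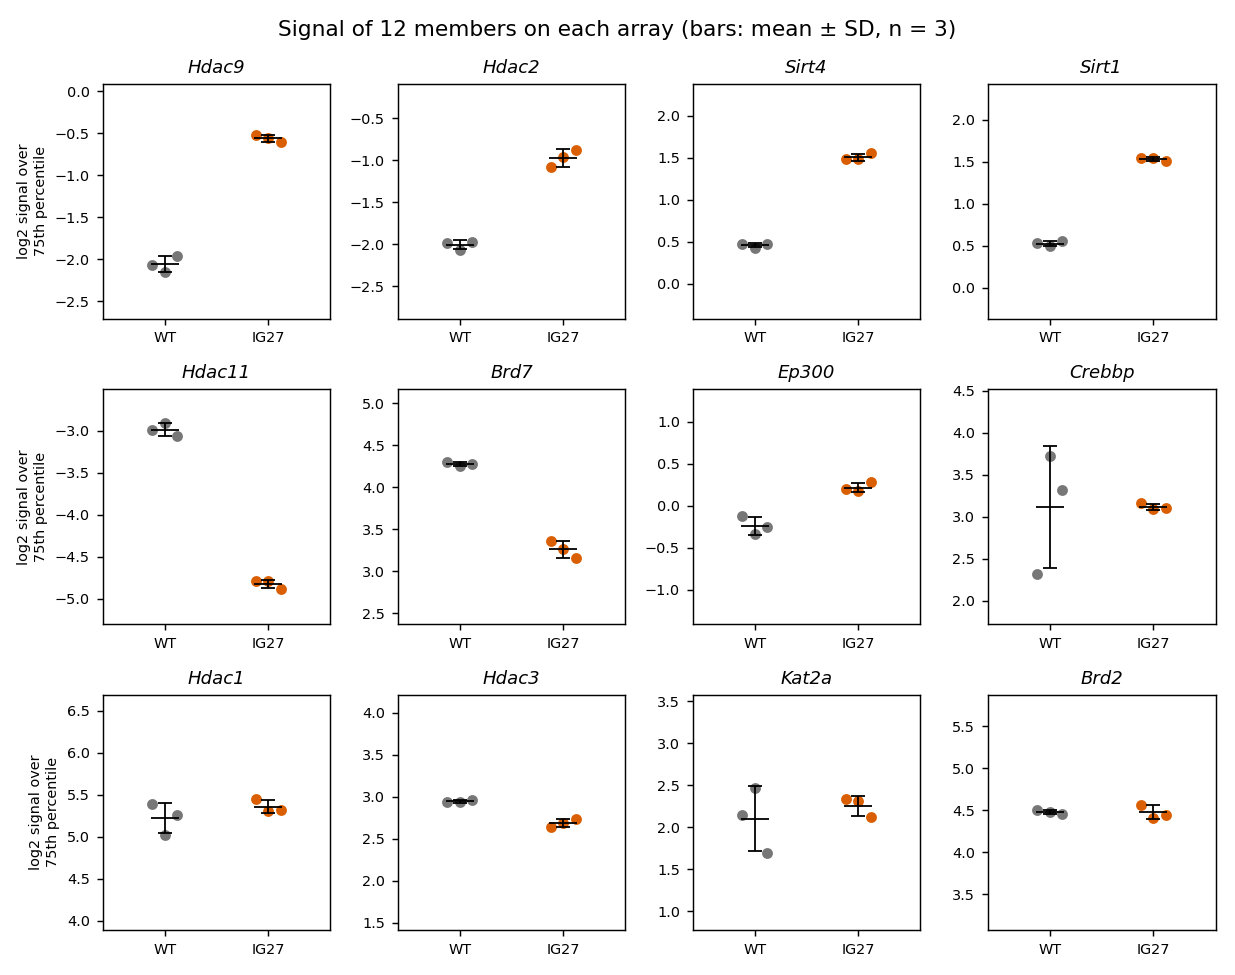
Signal of 12 genes on each array (y axis, log2 over the 75th percentile of the array; all panels span the same range) for WT (gray) and IG27 (orange) cells, with the mean ± SD of 3 arrays. The upper row and *Hdac11*, *Brd7*, *Ep300* and *Hdac3* show groups that do not overlap, and *Crebbp* shows 1 WT array at 2.32 below the other WT arrays at 3.73 and 3.32.

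Of the 7 sirtuins, 4 rose and none fell, while 3 did not pass the test, where 30.5% of all genes were higher and 40% lower (at an unadjusted p under 0.05 *Sirt5* was higher and no sirtuin was lower). Under quantile normalization 6 were higher and none was lower, where 5031 of all genes were higher and 5791 lower. With normexp background correction 5 were higher and *Sirt2* was lower (-0.21), where 4430 of all genes were higher and 5615 lower. *Sirt1*, the nuclear enzyme that deacetylates histones and p53, had values of 0.53, 0.50 and 0.55 in WT cells and of 1.55, 1.55 and 1.51 in IG27 cells. The arrays of each group lay within 0.06 of each other and the groups lay 0.96 apart, with a log2 fold change of 1.01 (SE 0.04, adjusted p = 4.8e-06 by limma). Its second probe gave 1.22. *Sirt4*, a mitochondrial sirtuin with weak deacetylase activity, had values of 0.48, 0.43 and 0.47 in WT cells and of 1.49, 1.48 and 1.56 in IG27 cells. The groups did not overlap and the log2 fold change was 1.05 (SE 0.05, adjusted p = 5.23e-06 by limma), with 1.33 and 1.01 by its other probes.

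*Sirt6*, which deacetylates H3K9 in the nucleus, rose by 0.69 and by 1.10 by its 2 probes. *Sirt3*, the main deacetylase of mitochondria, rose by 0.21 (adjusted p = 0.013 by limma), a call lost with slide row as a block (adjusted p = 0.0531). *Sirt5*, which removes succinyl and malonyl groups, differed by 0.28 (95% confidence interval 0.02 to 0.55) and missed the threshold (adjusted p = 0.0572 by limma), with WT values from 0.15 to 0.56; without WT replicate 1 the difference was 0.39 and passed the test (adjusted p = 0.00788). The cytoplasmic *Sirt2* differed by -0.13 (95% confidence interval -0.29 to 0.04) and the nucleolar *Sirt7* by 0.01 (95% confidence interval -0.15 to 0.17), and neither passed the test. Without IG27 replicate 2, *Sirt2* differed by -0.19 and passed it (adjusted p = 0.0383 by limma). *Hdac2*, *Sirt1* and *Sirt6* are the 3 members on chromosome 10. All 3 rose by 0.69 or more, whereas the 682 tested genes of this chromosome had a median of 0.08.

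Of the 2 writers of H3K27 acetylation, *Ep300* rose and *Crebbp* did not pass the test. *Ep300*, which encodes p300, had values of -0.12, -0.34 and -0.25 in WT cells and of 0.20, 0.18 and 0.28 in IG27 cells. The groups did not overlap, and the log2 fold change was 0.46 (SE 0.07, adjusted p = 0.00139 by limma), or 1.37-fold. Its second probe gave 0.29 (adjusted p = 0.0195 over all probes by limma), and chromosome 15, on which it lies, had a median of 0.30. *Crebbp*, which encodes CBP, had values of 2.32, 3.73 and 3.32 in WT cells and of 3.16, 3.09 and 3.11 in IG27 cells by its brightest probe. The WT arrays lay on both sides of the IG27 arrays, with replicate 1 lowest and replicate 2 highest. The difference was 0.00 with a 95% confidence interval of -0.84 to 0.84. Without WT replicate 1 it was -0.40 and passed the test (adjusted p = 0.0355 by limma). Over the 19 alternatives it ran from -0.61 to 0.30, so its sign depended on which arrays were used. The second probe of *Crebbp* had values of 1.85, 1.85 and 1.70 in WT cells and of 2.02, 1.86 and 1.96 in IG27 cells, a difference of 0.14 that did not pass the test (adjusted p = 0.114 over all probes by limma).

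Among the other writers, *Kat2b* and *Kat8* rose, *Hat1*, *Kat6a* and *Kat6b* fell, and *Kat2a*, *Kat5* and *Kat7* did not pass the test. *Kat2a* and *Kat2b* encode GCN5 and PCAF, alternative acetyltransferases of the SAGA and ATAC complexes. *Kat2a* had values of 2.14, 2.46 and 1.69 in WT cells and of 2.33, 2.31 and 2.12 in IG27 cells. The IG27 arrays lay within the range of the WT arrays, and the difference of 0.15 had a 95% confidence interval of -0.32 to 0.63. The other probe of *Kat2a* differed by -0.17 and did not pass the test either (adjusted p = 0.262 over all probes by limma). *Kat2b* rose by 0.75 (SE 0.07, adjusted p = 1.65e-04 by limma), with WT arrays from -0.98 to -0.80 and IG27 arrays from -0.18 to -0.02. *Hat1*, the enzyme that acetylates newly made histone H4, fell by 0.46 (adjusted p = 2.7e-04 by limma), and chromosome 2, which carries it, had a median of -0.34.

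The MYST family was split. *Kat8*, the H4K16 acetyltransferase MOF, rose by 0.50 (SE 0.08, adjusted p = 0.0019 by limma), with WT arrays from 3.14 to 3.31 and IG27 arrays from 3.60 to 3.85. *Kat6a*, which encodes MOZ, fell by 0.85 (SE 0.07, adjusted p = 8.61e-05 by limma) and by 0.75 by its other probe. Its chromosome 8 had a median of -0.67, and relative to that median the difference was -0.18. Its paralog *Kat6b* (MORF) fell by 0.33 by its brightest probe (adjusted p = 0.00244 by limma), but its other probes gave -0.09 and 0.11, and the call was lost with the mean of the probes (-0.10, adjusted p = 0.473). *Kat5*, the catalytic subunit TIP60, differed by 0.12 (95% confidence interval -0.01 to 0.25) by the brightest probe and by 0.35 by the other, which passed the test over all probes (adjusted p = 0.00906 by limma). *Kat7* (HBO1) differed by -0.09 (95% confidence interval -0.23 to 0.05).

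Among the readers, *Brd7*, *Brd9* and *Brd3* fell, *Brd8* rose, and *Brd2*, *Brd1* and *Brpf1* did not pass the test. *Brd7*, the bromodomain subunit of the PBAF form of SWI/SNF, had values of 4.30, 4.25 and 4.27 in WT cells and of 3.36, 3.26 and 3.16 in IG27 cells. The groups lay 0.88 apart, and the log2 fold change was -1.01 (SE 0.06, adjusted p = 2.27e-05 by limma). The other 3 probes of *Brd7* gave -0.87, -1.01 and -0.62, so all 4 were lower. It lies on chromosome 8 like *Kat6a*, and relative to the median of that chromosome it differed by -0.34. *Brd9*, the bromodomain subunit of the non-canonical SWI/SNF complex, fell by 0.99 (SE 0.07, adjusted p = 4.28e-05 by limma), with WT arrays from 2.76 to 2.85 and IG27 arrays from 1.73 to 1.95, and by 1.02 by its other probe. Its chromosome 13 had a median of -0.16. *Brd8*, a subunit of the TIP60 complex, rose by 0.33 and by 0.26 by its 2 probes.

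*Brd2* and *Brd3* belong to the BET family, whose paired bromodomains bind acetylated histones and promote elongation by RNA polymerase. *Brd2* had values of 4.51, 4.48 and 4.45 in WT cells and of 4.57, 4.41 and 4.45 in IG27 cells. The groups overlapped, and the difference of 0.00 had a 95% confidence interval of -0.15 to 0.14. *Brd3* fell by 0.50 by its brightest probe (adjusted p = 0.0034 by limma), and its other probe differed by -0.16 and did not pass the test over all probes (adjusted p = 0.0559). Of the scaffolds of MYST complexes, *Brd1* differed by 0.10 (95% confidence interval -0.08 to 0.27) by its brightest probe and by 0.12 by its other probe. *Brpf1* differed by -0.01 (95% confidence interval -0.14 to 0.11) and by -0.21 by its other probe. No probe of either gene passed the test, but *Brpf1* was called higher under quantile normalization (0.14, adjusted p = 0.0478 by limma).

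Most genes read by several probes gave 1 direction. Of the 64 tested probes of the members, 21 were higher and 20 lower in IG27 cells, against 30.9% higher and 38.8% lower of all 21895 tested probes. More than 1 probe was tested for 24 genes. In 4 of them (*Crebbp*, *Kat2a*, *Kat6b* and *Brd2*) the probes differed in sign, and in 0 were probes called in both directions. Of the 14 called genes with several tested probes, all probes were called the same way in 11 (for *Hdac9* with the probe that passed only through IG27 cells), the exceptions being *Hdac3*, *Kat6b* and *Brd3*. The matching share over all called genes with several probes is not given here, so this count cannot be set against a background.

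**Figure D3:**
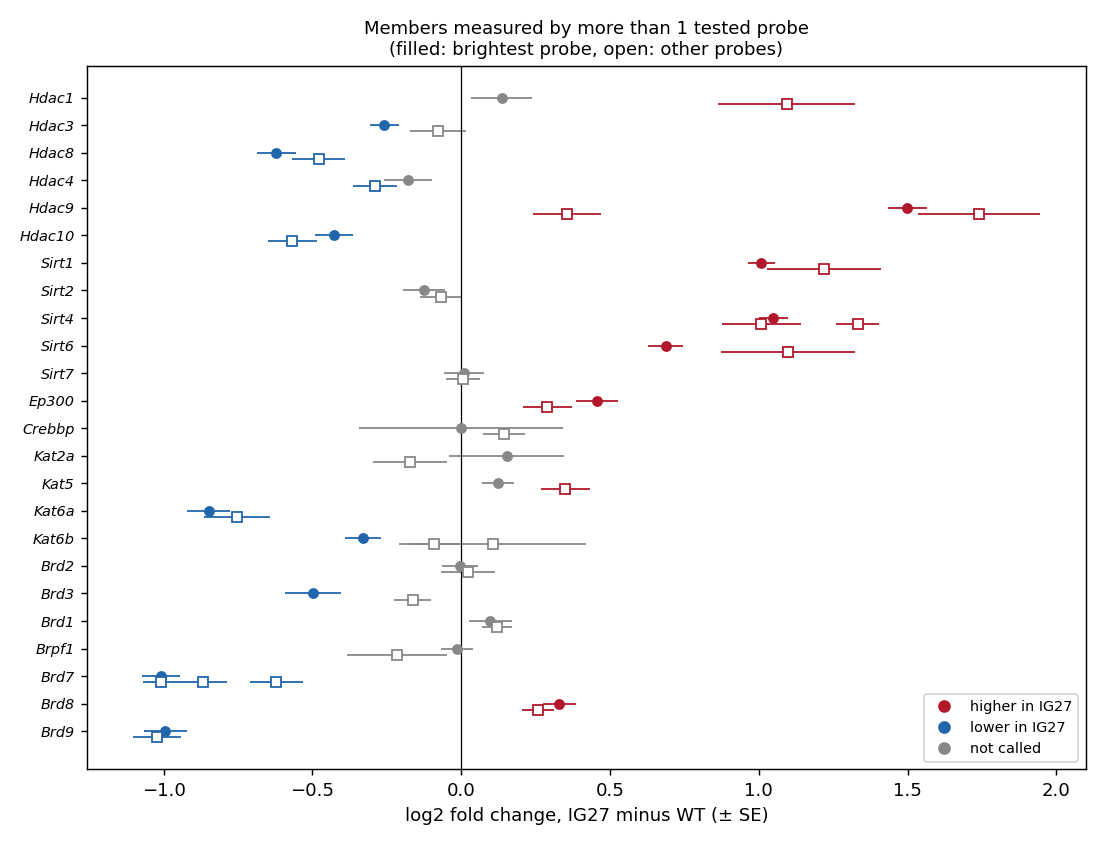
Log2 fold change (IG27 minus WT, x axis, bars ± SE) of every tested probe of the 24 genes with more than 1, with the brightest probe filled and the others open, colored by the call over all probes. *Brd7*, *Sirt4* and *Brd9* have probes that lie close together, while the probes of *Hdac1* (0.14 and 1.09) and *Hdac9* (0.35 and 1.50, without the probe that passed only through IG27 cells) lie far apart.

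The chromosomes on which the members lie differed in their medians, from -0.67 on chromosome 8 to 0.33 on chromosome 4, against -0.07 for all genes. The members on chromosome 8 (*Brd7* and *Kat6a*), on X (*Hdac6* and *Hdac8*) and on chromosome 2 (*Brd3* and *Hat1*) were all lower in IG27 cells, and those on chromosome 10 were all higher. Relative to the median of the chromosome, *Hdac11* (-1.62), *Brd9* (-0.83), *Hdac9* (1.52), *Sirt4* (1.02), *Hdac2* (0.95) and *Sirt1* (0.92) differed by nearly as much as before, whereas *Kat6a*, *Hdac8* and *Ep300* (0.16) differed by less. The part of the chromosomes in these results was not tested.

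**Figure D4:**
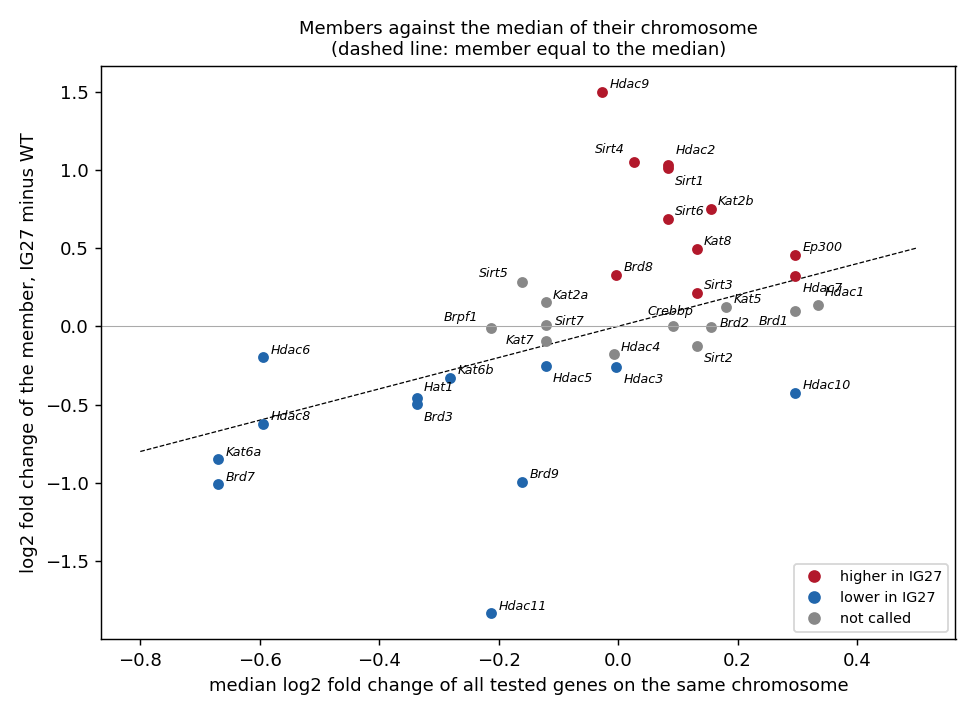
Log2 fold change of each of the 35 genes (y axis, IG27 minus WT) against the median log2 fold change of all tested genes on its chromosome (x axis), colored by call, with a dashed line where both are equal. *Kat6a* (-0.18 from the line) and *Hdac8* (-0.03) lie at the left near the line and *Brd7* (-0.34) below it, while *Hdac9*, *Sirt4*, *Hdac2* and *Sirt1* lie far above it and *Hdac11* and *Brd9* far below.

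The partners of these enzymes, like all genes, were lower more often than higher. Of 123 other genes of acetylation complexes, of further readers and of the supply of acetyl-CoA and NAD, 121 were tested, 27 (22.3%) of them higher and 67 (55.4%) lower in IG27 cells, against 40% lower and 30.5% higher among all genes. Their median log2 fold change was -0.27, and -0.17 under quantile normalization, against -0.07 and -0.05 for all genes. With slide row as a block fewer were called higher, but that fit sets IG27 cells against WT replicate 2 alone and cannot decide this count. Of 38 subunits of the corepressor complexes of HDAC1, HDAC2 and HDAC3, 7 were higher and 22 lower (median -0.31), beside the same shares of all genes. *Chd3*, a nucleosome remodeling ATPase of the NuRD complex, fell by 2.25 (SE 0.05, adjusted p = 3.2e-07 by limma), with WT arrays from 4.15 to 4.22 and IG27 arrays from 1.88 to 1.97. *Gatad2a*, another NuRD subunit, fell by 1.27, and its second probe by 0.57. It lies on chromosome 8, which had a median of -0.67. The corepressor subunits *Ing1*, *Ing2*, *Sap30* and *Sin3b*, which were lower too, lie on the same chromosome. The part of the chromosome in these falls was not tested. In the same group *Rcor2*, a scaffold of the CoREST complex, rose by 1.69 (SE 0.05, adjusted p = 7e-07 by limma), with WT arrays from 1.61 to 1.64 and IG27 arrays from 3.27 to 3.35. *Mier1*, which recruits HDAC1 and HDAC2, rose by 0.93, with WT replicate 1 at 1.24 below the other WT arrays at 2.24 and 2.02.

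Of 15 subunits of the MOZ/MORF, HBO1, MSL and NSL complexes, 2 were higher and 9 lower (median -0.31), where 30.5% of all genes were higher and 40% lower. *Mcrs1* of the NSL complex, which contains *Kat8*, rose by 0.92 (SE 0.05, adjusted p = 9.12e-06 by limma) and by 0.996 by its second probe. The SAGA and ATAC subunits had 4 of 16 higher and 7 lower (median -0.04), and those of the NuA4/TIP60 complex had 4 of 15 higher and 7 lower (median -0.10). Of the 23 other readers tested, 5 were higher and 16 lower (median -0.32), and these counts too stand beside 30.5% and 40% of all genes. Among the 5 higher readers, *Brwd1*, a protein with paired bromodomains, rose by 1.62 by its brightest probe and by 0.20 to 0.57 by 4 others, and *Smarca2*, the SWI/SNF ATPase BRM, rose by 1.55 (SE 0.06, adjusted p = 3.38e-06 by limma) and by 1.85 and 1.90 by its other probes. *Smarca2* had WT arrays from 0.69 to 0.87 and IG27 arrays from 2.33 to 2.36, with no overlap.

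**Figure D5:**
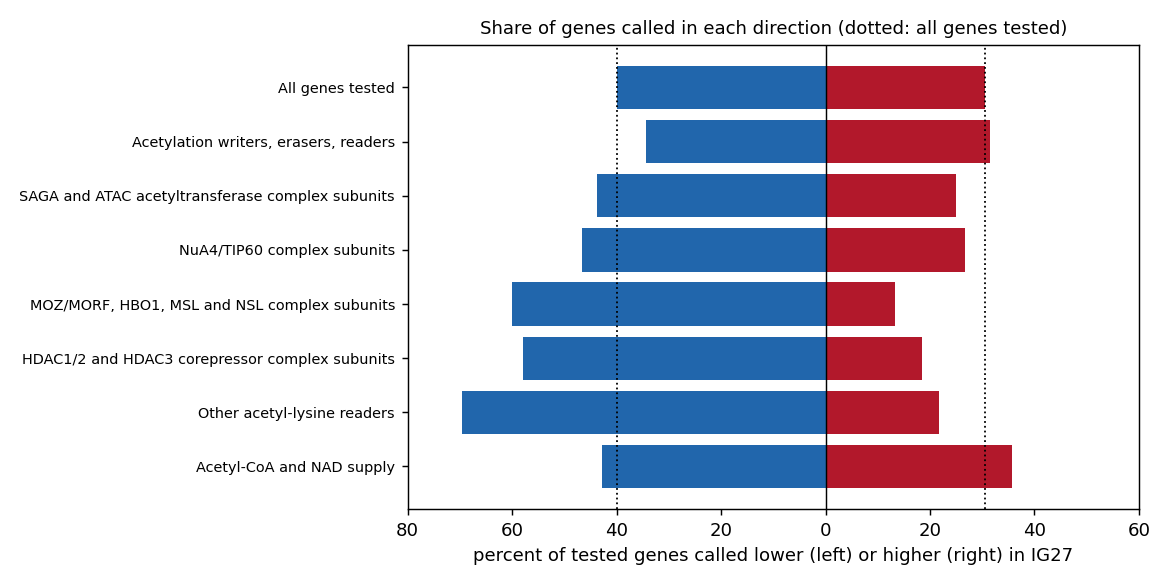
Percent of the tested genes of each group called lower (left) or higher (right) in IG27 cells, with dotted lines at the shares among all genes (40% and 30.5%). The 35 writers, erasers and readers (34.3% and 31.4%) lie near the dotted lines. The other readers, the MOZ/MORF, HBO1, MSL and NSL subunits and the corepressor subunits reach past the line on the left and stay short of it on the right. The SAGA and ATAC subunits and the NuA4/TIP60 subunits do so too, by less.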

How the data were processed

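RNA of 3 WT and 3 IG27 samples was measured on single-color Agilent arrays. The authors read spot intensities with Feature Extraction (version 10.7.3.1 per the file headers, 9.1 in the submitters' processing notes), and the deposited processed signal is an intensity on a linear scale. The deposited well-above-background and outlier flags (other values than intensities) were used as filters. The deposited table of intensities equals the scanner output of the complete arrays within a relative tolerance of 1e-04, with WT replicates 2 and 3 exchanged, so the labels of the scanner output were followed, and IG27 replicate 2, which lacks flags, was read from the table.

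From these values log2 minus the 75th percentile of each array was computed. Probes were named through RefSeq accessions (32994 of 35886 matched, table of GRCm38.p6; the design of the array uses mm9), and a gene was tested by its brightest probe among those flagged well above background on all complete arrays of WT or of IG27 cells. Differences were tested with limma (version 3.58.1, R 4.3.3, lmFit and eBayes, no block, Benjamini-Hochberg), over genes and, for single probes, over all probes. The steps were tested on simulated data. The number of arrays limits the precision. A permutation test of 1 gene with 3 against 3 arrays cannot give an exact p below 0.1.

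The members and lists were chosen with earlier results of these data known. Values on each array were given for called members with a log2 fold change of at least 1, for *Ep300*, *Crebbp*, *Hdac1*, *Hdac2*, *Hdac3*, *Sirt1*, *Kat2a* and *Brd2* irrespective of outcome, and for members with probes called in both directions. Of the other list, the 5 largest rises and falls among called genes without overlap were named. Ranges for other genes were chosen after their values were seen. Alternatives were other scaling, background, filters, probe choice, fits, blocks and arrays left out.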

Additional observations from a re-analysis of the deposited data

How the results depend on the processing

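Over 19 alternatives, 17 of the 23 called members had the same call in each, and 6 (*Hdac3*, *Hdac5*, *Hdac6*, *Sirt3*, *Kat6b* and *Brd3*) lost it in at least 1. The matching shares over all genes are not given here. Of the 12 members not called, 8 were called in at least 1 alternative. The median log2 fold change of the members moved from 0.00 to 0.15 under quantile normalization, to 0.051 with normexp background correction and to -0.046 with slide row as a block, a fit in which IG27 cells are set against WT replicate 2 alone. The slide row also gave 16 in place of 27 genes of the other list higher. *Brpf1* reversed to 0.14 under quantile normalization. Leaving out 1 array gave 9800 to 10145 genes called, 11 to 12 members higher, 11 to 13 lower, a median of -0.02 to 0.03 and 39 to 42 member probes called, and 21 to 25 higher and 59 to 64 lower genes of the other list. The replicate numbers did not pair the samples (correlations of deviations 0.01, 0.04 and 0.08), and with the replicate block 10309 genes, 12 higher and 12 lower members, 25 higher and 64 lower genes of the other list and 42 member probes were called. The cause of these changes was not tested. With 3 arrays a group, the call of *Hdac6* (-0.20, adjusted p = 0.0346 by limma) lay near the threshold. Size alone did not set such calls, as *Sirt3* (0.21) passed the test and *Sirt5* (0.28) did not.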

Other observations

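Of 14 genes that supply acetyl-CoA and NAD, the substrates of these enzymes, 5 were higher and 6 lower in IG27 cells, near the shares over all genes (30.5% and 40%), with a median log2 fold change of -0.01. On the side of NAD, which sirtuins consume, *Nmnat2*, a cytoplasmic enzyme of the last step of NAD synthesis, fell from a range of 1.97 to 2.11 in WT cells to one of -2.17 to -1.84 in IG27 cells (log2 fold change -4.09, SE 0.10, adjusted p = 4.37e-07 by limma), and its dimmer probe, not well above background in IG27 cells, was at least 13.1-fold lower. *Nnmt*, which uses up nicotinamide by methylation, fell by 1.71 by each of its 2 probes, and its chromosome 9 had a median of -0.64. Chosen after their values were seen, *Nampt*, the rate-limiting enzyme of NAD salvage, rose by 0.70 (SE 0.07, adjusted p = 1.61e-04 by limma), *Nmnat1*, the nuclear form, by 0.46 and *Naprt* by 0.36, and *Nmnat3* differed by 0.00.

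On the side of acetyl-CoA, *Acss1*, the mitochondrial acetyl-CoA synthetase, fell by 1.71 (SE 0.05, adjusted p = 1.07e-06 by limma), with WT arrays from 2.73 to 2.79 and IG27 arrays from 0.99 to 1.11. The following were chosen after their values were seen. *Acly*, which makes nuclear and cytoplasmic acetyl-CoA from citrate, rose by 0.20 (adjusted p = 0.0102 by limma), and *Acss2* (-0.01) and the citrate carrier *Slc25a1* (-0.02) did not pass the test. *Crat*, carnitine acetyltransferase, fell by 0.99 and *Slc33a1*, the acetyl-CoA transporter of the endoplasmic reticulum, by 0.82. *Pdha1* of the pyruvate dehydrogenase complex fell by 0.62 and lies on the X chromosome, which had a median of -0.59. *Dlat* of the same complex differed by 0.19 by its brightest probe and by -0.01 by its other probe.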
